A study of Mus musculus with 6 samples.

Results

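Acetylcholine receptors and the enzyme that clears acetylcholine were compared in brain RNA of male C57 mice between 3 libraries of a group with high and 3 of a group with low sexual motivation. The genes were chosen by name: the muscarinic receptors Chrm1, Chrm2, Chrm3 and Chrm4, the nicotinic subunits Chrna4, Chrna7 and Chrnb2, the cholinesterase gene Ache and the synthesis gene Chat. Of these 9 names, 8 had values among the 13170 genes of the table, and Chat was not analysed here. The groups share strain and sex, no treatment or engineered allele is named, and the age is given only as adult. How motivation was scored and how many animals stand behind a library are not given here, so p-values cover no more than the spread between the libraries, which may be technical.

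Acetylcholine in the forebrain is released mainly by neurons of the basal forebrain and by local interneurons. Muscarinic receptors are G protein-coupled: the products of Chrm1 and Chrm3 couple to Gq and phospholipase C, and those of Chrm2 and Chrm4 to Gi and Go. Nicotinic receptors are cation channels made of 5 subunits, with the assembly of alpha4 and beta2 subunits (Chrna4, Chrnb2) and the alpha7 homomer (Chrna7) as common brain types. Acetylcholinesterase hydrolyses the transmitter in the synaptic cleft. In the amygdala, cholinergic input from the basal forebrain is known for its part in emotional learning.

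The label of the tissue is not uniform: the series title names the medial amygdala, the protocol of RNA extraction has PrL in its place, and the tissue field says brain. Of 10 marker genes of the medial amygdala 7 had values, 4 of them with a mean of at least 1 FPKM. Lhx6 had 7.67 to 9.50 FPKM and Meis2 6.25 to 14.4, while Cyp19a1, Sim1 and Lhx5 were not analysed here. Pyramidal and striatal markers were present in every library, with Slc17a7 at 138 to 256 FPKM and Penk at 62.1 to 207. Of 9 markers of forebrain cholinergic neurons only Ngfr had a value, at 0.321 to 0.793 FPKM, and Slc18a3, Slc5a7, Lhx8 and Isl1 were not analysed here. Low libraries 1 and 3 stood apart by choroid plexus genes, with a summed level of the 10 markers of 1339 and 4165 FPKM against 41.1 to 111 in the high libraries and 81.4 in low library 2. In bulk tissue, fewer cells of a type and less RNA per cell cannot be told apart.

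None of the 8 genes separated the groups. FPKM are fragments scaled to transcript length and to the mapped fragments of a library. A log2 difference is the mean log2(FPKM + 1) of the high group minus that of the low group, a scale that understates changes of low genes. By limma with Benjamini-Hochberg adjustment, 0 of the 7 members that passed a mean of 1 FPKM were called at an adjusted p under 0.05, where 0% of all 12026 tested genes were called. At an unadjusted p under 0.05 there was 1 member, Ache, where the share over all tested genes was 8.39%. Groups that did not overlap were found for 0 members, where 14.9% of tested genes had them. Chrna7, below the filter, was read from a fit of that model to all 13170 genes.

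**Figure D1:**
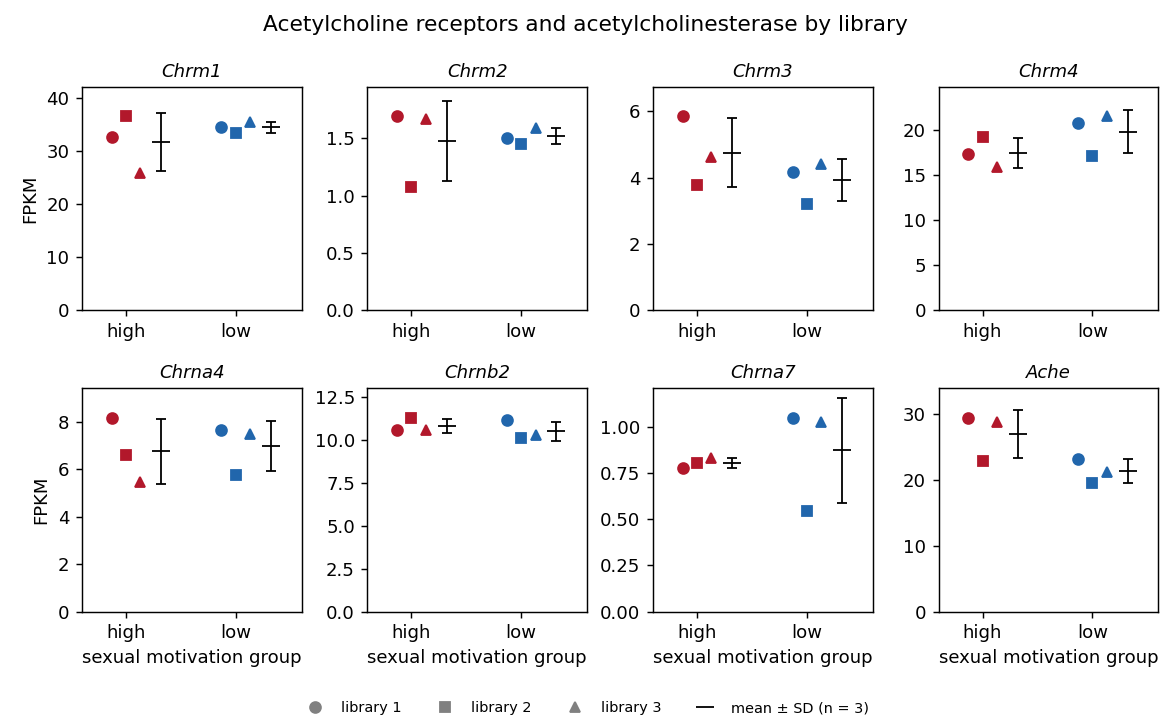
FPKM of 8 genes in each library, with the high group in red and the low group in blue; marker shapes give the library number, black bars the mean ± SD (n = 3), and each vertical axis starts at 0. The groups overlap in every panel; Ache comes nearest to separation, with high library 2 (22.8) below low library 1 (23.3).

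Levels per transcript length put Chrm1 first, with a mean of 33.1 FPKM over the 6 libraries, followed by Ache (24.2), Chrm4 (18.6), Chrnb2 (10.7), Chrna4 (6.86), Chrm3 (4.33), Chrm2 (1.50) and Chrna7 (0.841). Chrm1 lay at the 89.4th percentile of mean FPKM over the table and Chrna7 at the 6.27th. The ranges of Chrm1 and Ache overlapped, as did those of Ache and Chrm4, and each of these orders held in 5 of 6 libraries. Chrna4 and Chrm3 overlapped in range too, though Chrna4 was above Chrm3 in 6 of 6 libraries. The other neighbours in this order did not overlap. Which gene models lie behind the FPKM is not stated, and this order depends on them: in GENCODE M21, Chrm4 is a single block of 1440 bases (chromosome 2, 91927249 to 91928688, GRCm38), while the RefSeq start of the gene lies upstream of it.

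Ache, on chromosome 5 from 137287519 to 137294466, had the largest difference of the members. Its FPKM was 29.5, 22.8 and 28.8 in high libraries 1, 2 and 3 and 23.3, 19.6 and 21.2 in low libraries 1, 2 and 3. High libraries 1 and 3 were above every low library, and high library 2 lay between low libraries 1 and 3. The group means were 27.0 ± 3.66 and 21.3 ± 1.84 FPKM (SD, n = 3 each), a ratio of 1.27. The log2 difference was 0.32 (SE 0.108; 95% interval 0.073 to 0.57), with an unadjusted p of 0.0175 and an adjusted p of 0.564 by limma, so it did not pass. The exact 2-sided permutation p of the mean FPKM was 0.2, where 0.1 is the smallest that 3 against 3 can give. The authors' deposited table gives Ache a log2 fold change of 0.34 and an unadjusted p of 0.0742. Without high library 2 the limma difference was 0.43 with an adjusted p of 0.132, and with each other library left out it lay between 0.26 and 0.38.

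Within the high group, vascular and meningeal markers were highest in the same libraries as Ache. The summed level of the 8 endothelial and mural markers was 98.8 and 76.0 FPKM in high libraries 1 and 3, and 65.5 in high library 2 against 58.2 to 67.8 in the low libraries. The sum of 6 leptomeningeal markers was 29.1, 8.06 and 15.3 FPKM in high libraries 1, 2 and 3, and 7.17 to 12.2 in the low libraries; no marker with a value was at 0. The sum of 8 myelin markers was 376 to 443 FPKM in the high libraries and 342 to 379 in the low ones. Of these 8, 8 were higher in the high group and 4 had separate groups, where 14.9% of all tested genes had separate groups. Of the 8 endothelial and mural markers 7 were higher, 2 with separate groups. Of the 5 leptomeningeal markers tested 5 were higher, 0 with separate groups. By limma 0 markers of these 3 lists were called after adjustment. Ependymal markers, with values for 7 of 8, summed to 11.1 to 13.4 FPKM in the high libraries. In the low ones they summed to 19.9 to 39.6 FPKM, without overlap. Of the 6 tested, 6 were lower in the high group and 0 were called by limma after adjustment. Groups were separate for 5 of these 6, where 14.9% of all tested genes had separate groups. The part of these cell types in the difference of Ache was not tested. Among the low libraries, low library 2 was lowest in the choroid plexus sum and in Ache, while low library 3 had the highest choroid plexus sum and low library 1 the highest Ache. Prima1, whose product anchors acetylcholinesterase to membranes in brain, had 1.51, 1.22 and 0.982 FPKM in the high group against 1.05, 1.12 and 1.06 in the low group, which overlap.

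Libraries differed along the base composition of transcripts, which is given beside these values; its part in them was tested only by removing the trend. The deviation of a library from the mean of the others had a Spearman rho with transcript GC content of 0.45 in high library 2 and −0.50 in low library 2, and the difference between the groups had a rho of 0.40, across 11924 genes that are not independent replicates. Ache had the highest transcript GC content of the members (60.4%) and Chrm2 the lowest (41.6%), where the median of tested genes was 50.7%. The 100 bases directly upstream of the RefSeq starts of these 2 genes in GRCm38.p6 are shown as the GC-rich and GC-poor ends of the family. Capitals mark GGGCGG or its complement CCGCCC, the core of the GC box bound by Sp1 family factors, searched on both strands with overlaps allowed.
Ache: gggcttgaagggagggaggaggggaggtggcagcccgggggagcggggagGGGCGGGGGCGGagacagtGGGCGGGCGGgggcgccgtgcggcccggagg
Chrm2: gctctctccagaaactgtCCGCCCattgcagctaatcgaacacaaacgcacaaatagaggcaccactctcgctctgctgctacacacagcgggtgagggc
The Ache stretch lies at chr5:137288154-137288253 and that of Chrm2 at chr6:36387984-36388083, both on the plus strand. In GENCODE M21 the Ache stretch lies in an intron of longer transcripts that start further upstream, and overlaps no exon of the gene. The window held 82% G and C in Ache and 56% in Chrm2, where the median of 32851 such windows was 55.0%. The motif occurred 4 times in the Ache window and 1 time in that of Chrm2. Of the 9 names 8 had a window, and Chrm4 and Chrna4 completed the 4 windows with a match, where 24.7% of all windows held one. After a trend on transcript GC content and length was removed from each library, Ache had a log2 difference of 0.27 in place of 0.32. Chrm2 had one of 0.085 in place of −0.032. Chrm4 had one of −0.23 in place of −0.17, with an unadjusted p of 0.0291 and an adjusted p of 0.640 by limma.

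The Gq-coupled receptors did not differ beyond their spread. Chrm1, the main muscarinic receptor of pyramidal neurons (chromosome 19, 8663789 to 8683587), had 32.7, 36.5 and 25.8 FPKM in the high group against 34.6, 33.4 and 35.5 in the low group. High library 3 was the lowest and high library 2 the highest of the 6, so the low values lay inside the range of the high ones. The log2 difference was −0.13 (SE 0.115; 95% interval −0.40 to 0.13; limma adjusted p = 0.751), and without high library 3 it was 0.0044. Chrm3 (chromosome 13, 9875486 to 10360847) had 5.84, 3.77 and 4.62 FPKM in the high group against 4.17, 3.20 and 4.39 in the low group. High libraries 1 and 3 were above all low libraries, and high library 2 was below low libraries 1 and 3. Its log2 difference was 0.22 (SE 0.148; 95% interval −0.13 to 0.56; limma adjusted p = 0.694), and it was 0.082 without high library 1.

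The Gi-coupled receptors overlapped as well. Chrm4, best known from striatal projection neurons, had 17.3, 19.2 and 15.9 FPKM in the high group against 20.8, 17.1 and 21.5 in the low group. Low libraries 1 and 3 were above all high libraries, and low library 2 lay within the high range. The log2 difference was −0.17 (SE 0.103; 95% interval −0.41 to 0.068; limma adjusted p = 0.658). The higher low libraries are those with the choroid plexus signal. With the choroid plexus level as a covariate the difference was 0.017 (95% interval −0.24 to 0.28). That level was high in low libraries 1 and 3 only, so it cannot be fully told apart from the group. Its part in the level of Chrm4 was not tested. Chrm2, a presynaptic autoreceptor (chromosome 6, 36388084 to 36528414), had 1.69, 1.08 and 1.67 FPKM in the high group against 1.51, 1.45 and 1.59 in the low group. High library 2 alone was low, and the other high libraries were above every low library. Its log2 difference was −0.032 (SE 0.122; 95% interval −0.31 to 0.25; limma adjusted p = 0.951), and 0.091 without high library 2.

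**Figure D2:**
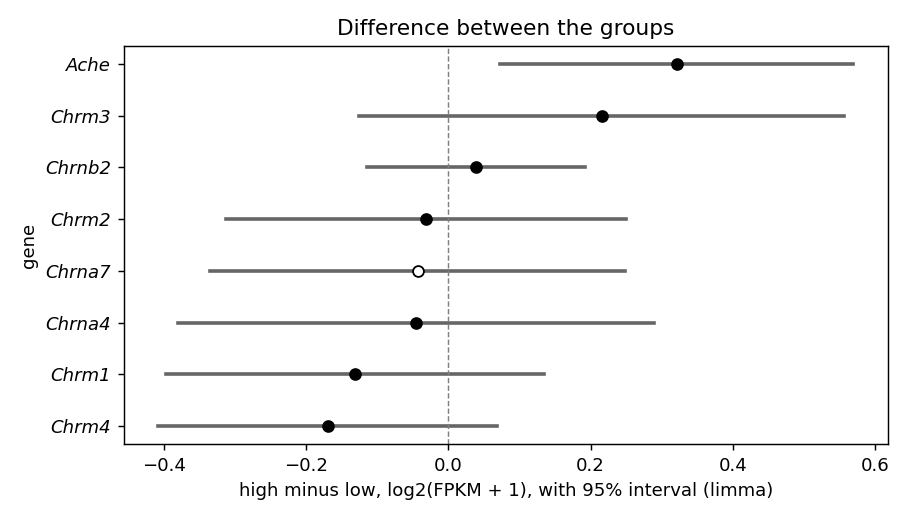
Log2 difference of each gene between the groups (high minus low, log2(FPKM + 1)), with the 95% interval from limma; the open circle marks Chrna7, read from the fit to all genes of the table. The interval of Ache runs from 0.073 to 0.57 before any adjustment, and the other intervals include 0.

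Ratios within a library, which do not depend on how libraries are scaled, are given as values without a test. A trend on transcript GC content can still enter them, and they were not recomputed with that trend removed. Chrm1 made up 53.8% to 60.5% of the summed FPKM of the 4 muscarinic receptors. Chrm1 and Chrm3 together stood at 2.03, 1.98 and 1.74 times Chrm2 and Chrm4 together in the high libraries against 1.73, 1.97 and 1.73 times in the low libraries. These ratios overlapped between the groups. Ache stood at 0.512, 0.377 and 0.599 times the muscarinic sum in the high libraries against 0.381, 0.355 and 0.336 times in the low libraries. High library 2 was the one high library within the range of the low group.

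The nicotinic subunits among the members overlapped between the groups, with log2 differences of −0.046 to 0.039. Chrnb2, the beta2 subunit (chromosome 3, 89746195 to 89764632), was the steadiest member, with 10.6, 11.3 and 10.6 FPKM in the high group against 11.1, 10.1 and 10.3 in the low group and a coefficient of variation of 4.39% over the 6 libraries. Its log2 difference was 0.039 (SE 0.0664; 95% interval −0.11 to 0.19; limma adjusted p = 0.875). It overlaps Adar on the opposite strand, and whether counting used the strand is not stated. Chrna4, the alpha4 subunit (chromosome 2, 181018380 to 181043546), had 8.18, 6.61 and 5.47 FPKM in the high group against 7.67, 5.75 and 7.49 in the low group. The highest and the lowest of its values were both in the high group. Its log2 difference was −0.046 (SE 0.145; 95% interval −0.38 to 0.29; limma adjusted p = 0.938), and it was 0.078 when high library 3 was left out and −0.18 when high library 1 was. Chrna4 stood at 0.517 to 0.772 times Chrnb2 in the high libraries and 0.569 to 0.728 times in the low libraries.

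Chrna7, the alpha7 subunit (chromosome 7, 63098692 to 63212569), was close to the lower end of the table. It had 0.778, 0.806 and 0.834 FPKM in the high group against 1.05, 0.547 and 1.03 in the low group. The high libraries lay close together, inside the range of the low group. The unfiltered log2 difference was −0.043 (SE 0.126; 95% interval −0.33 to 0.25; limma adjusted p = 0.935). Of 16 nicotinic subunit names, 6 had values. The other 3 were Chrna2 (0.685, 0.306 and 1.04 FPKM against 0.231, 0.577 and 0.213), Chrnb1 (1.19, 1.12 and 0.819 against 0.980, 0.819 and 0.900) and Chrna10 (0.560, 0.481 and 0.493 against 0.528, 0.896 and 0.196), all with overlapping groups. The unfiltered log2 differences were 0.31 for Chrna2, 0.10 for Chrnb1 and −0.0021 for Chrna10. Chrna3, Chrna5, Chrnb4 and Chrm5 were not analysed here.

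**Figure D3:**
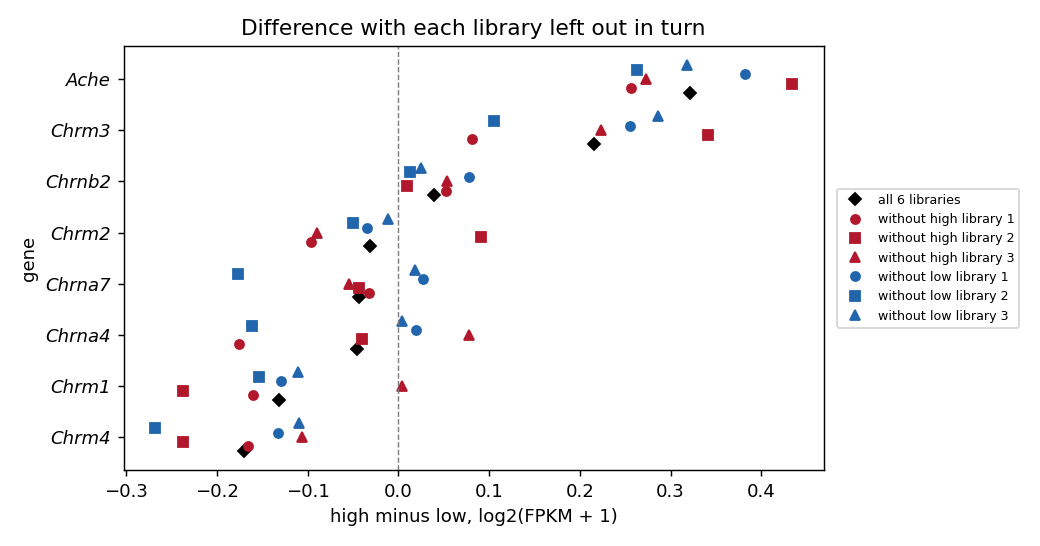
Log2 difference of each gene with all 6 libraries (black diamonds) and with 1 library left out (red, a high library; blue, a low library). Ache, Chrm3 and Chrnb2 stay above 0 in these fits and Chrm4 below, while Chrm1, Chrm2, Chrna4 and Chrna7 cross 0.

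The members differed in which libraries were high or low. Ordered by Chrm1, the libraries stood as when ordered by the summed level of 10 markers of pyramidal neurons, except that high library 1 and low library 2 changed places. That sum was 260, 344 and 198 FPKM in the high libraries, against 270, 242 and 310 in the low libraries. Slc17a7, the vesicular glutamate transporter of these cells, had 180, 256 and 138 FPKM in the high group against 192, 171 and 230 in the low group. Slc17a7 stood at 5.11 to 7.01 times Chrm1, with overlapping groups. The summed striatal markers were 347, 147 and 243 FPKM in the high libraries against 188, 296 and 138 in the low libraries. Chrm4 was not highest where these were highest. The part of tissue composition in the levels of these receptors was not tested.

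**Figure D4:**
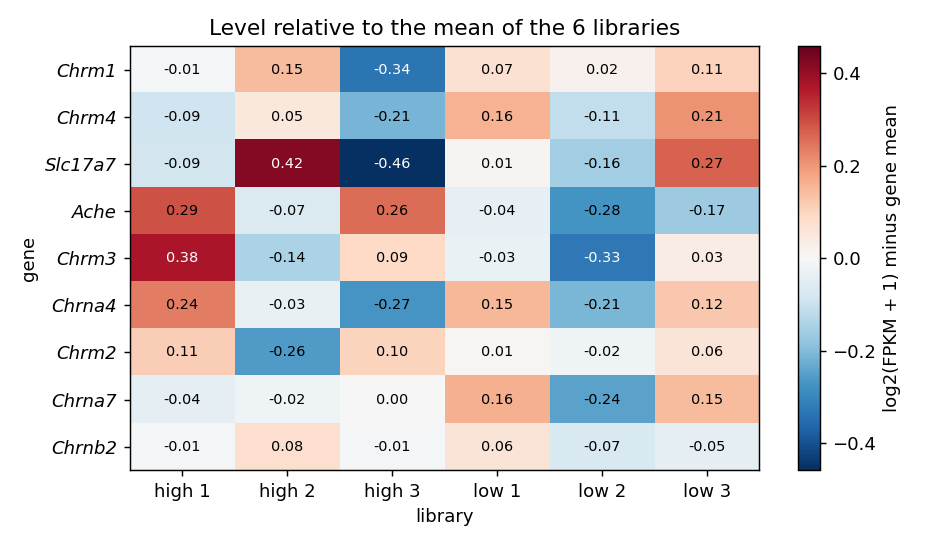
Level of each gene in each library as log2(FPKM + 1) minus the mean of the gene over the 6 libraries. Chrm1 and the pyramidal marker Slc17a7 are lowest in high library 3 (−0.34 and −0.46) and highest in high library 2 (0.15 and 0.42), while Ache is highest in high libraries 1 and 3 (0.29 and 0.26).

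On the log2(FPKM + 1) scale Chrm3 and Ache had the largest SD over the libraries, 0.237 and 0.228. By coefficient of variation of FPKM, Chrna7 varied most, at 22.0%, followed by Chrm3 at 20.6% and Ache at 16.7%. Among 7462 genes with a mean of at least 5 FPKM, the profiles most like that of Ache included those of Nos1 and Fxyd7, whose centred log2 values stayed within 0.106 of it in all 6 libraries. Nos1, the neuronal nitric oxide synthase, had 30.3, 26.7 and 31.9 FPKM in the high group against 25.8, 21.4 and 21.7 in the low group. For Chrm3 they were Mdga1, Slc5a5 and Cntn2, within 0.112, 0.121 and 0.132.

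Beyond the receptors and Ache, 34 other genes of acetylcholine signalling were tested, of 54 named in 7 lists. Of these 15 were higher and 19 lower, with a median log2 difference of −0.0076, where the median of all tested genes was 0.00018. By limma 0 were called after adjustment and 4 of the 34 had an unadjusted p under 0.05, where 8.39% of all tested genes had one. Groups that did not overlap were found for 5 of the 34, 2 higher and 3 lower, a share near the 14.9% of all tested genes.

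Of the 9 tested chaperones and Ly6 modulators of nicotinic receptors, 3 had groups that did not overlap, where 14.9% of all tested genes had them. These 3 are named because they had the smallest p-values of their list by limma. Lynx1, a membrane-anchored Ly6 protein that dampens nicotinic receptor responses, had 80.5, 85.4 and 80.7 FPKM in the high group against 62.5, 59.3 and 73.0 in the low group. Every high library was above every low library, at 82.2 ± 2.80 against 64.9 ± 7.14 (SD, n = 3 each), a log2 difference of 0.34 (SE 0.0845; limma adjusted p = 0.505). Lypd1, also called Lynx2, a related inhibitor of nicotinic receptors, had 22.0, 37.9 and 32.7 FPKM in the high group against 50.3, 45.6 and 51.8 in the low group. All high libraries were below all low libraries, at 30.9 ± 8.14 against 49.2 ± 3.22, a log2 difference of −0.69 (SE 0.173; limma adjusted p = 0.505). Neither passed the test, and the signs of these 2 differences were the same in all 21 alternative settings, with limma adjusted p-values of 0.166 to 0.979 for Lynx1 and 0.120 to 0.979 for Lypd1.

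**Figure D5:**
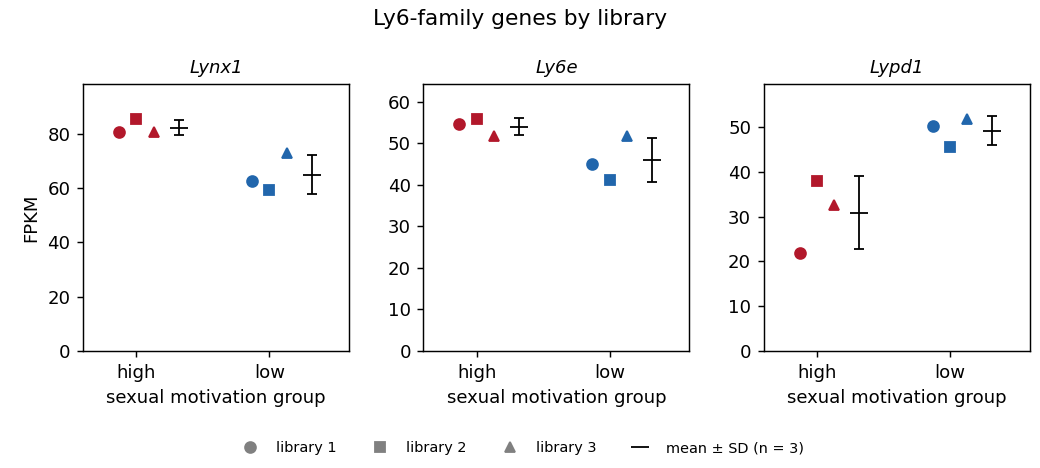
FPKM of Lynx1, Ly6e and Lypd1 by library, with the high group in red and the low group in blue; marker shapes give the library number and black bars the mean ± SD (n = 3), and axes start at 0. Lynx1 is higher and Lypd1 lower in every high library; for Ly6e the nearest values are 51.7 in high library 3 and 51.6 in low library 3.

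Ly6e, another Ly6 family gene, had 54.6, 55.8 and 51.7 FPKM in the high group against 44.9, 41.1 and 51.6 in the low group, a log2 difference of 0.24 (SE 0.0877; limma adjusted p = 0.582). High library 3 and low library 3 were almost level. The chaperones that help nicotinic receptors to assemble showed small differences: Ric3 had a log2 difference of −0.0057 (95% interval −0.14 to 0.13) and Tmem35a, also known as NACHO, one of −0.059 (95% interval −0.20 to 0.077). Over the 9 tested genes of this list 5 were higher and 4 lower, and 0 were called.

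Downstream of the muscarinic receptors, 12 genes of the Gq side and 9 of the Gi side were tested and 0 were called. On the Gq side 4 were higher and 8 lower, with a median log2 difference of −0.012, and 0 had separate groups. Prkcb, a protein kinase C, had 29.5, 29.3 and 25.1 FPKM in the high group against 22.1, 24.7 and 26.3 in the low group. Its values overlapped, as did those of the phospholipase gene Plcb4 and of Kcnq5, a subunit of the M-type potassium channel that Gq signalling closes. On the Gi side 3 were higher and 6 lower, with a median of −0.13 and 2 of the 9 genes with separate groups, both lower, where 14.9% of all tested genes had separate groups. Gnai3, an inhibitory G protein alpha subunit, had 8.36, 8.15 and 9.49 FPKM against 9.26, 10.5 and 10.4, and its groups overlapped (limma adjusted p = 0.584). Kcnj3, a subunit of the G protein-gated potassium channel, had 13.3, 10.8 and 13.3 FPKM against 14.3, 14.8 and 13.8, with separate groups (log2 difference −0.19, SE 0.0881; limma adjusted p = 0.599). Gnai1, also with separate groups, had 44.8, 31.1 and 44.7 FPKM against 51.6, 45.1 and 46.5 (log2 difference −0.26, SE 0.137; limma adjusted p = 0.614).

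Of 8 genes of synthesis and choline transport 3 were tested, with 2 higher, 1 lower and 0 called, and the vesicular acetylcholine transporter gene Slc18a3 was, like Chat, not analysed here. Slc10a4, a vesicular protein of cholinergic and monoaminergic neurons, had 1.06, 0.725 and 1.14 FPKM in the high group against 0.416, 0.745 and 0.698 in the low group. High library 2 lay inside the low range, and the unfiltered log2 difference was 0.29 (SE 0.127; limma adjusted p = 0.600). The choline kinase gene Chkb and the choline transporter-like gene Slc44a2 overlapped between the groups as well.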

How the data were processed

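Per the labels, poly(A) RNA was made into dUTP-marked libraries; the build GRCm38 and the tools StringTie, HISAT2 and fastp are credited to the submitters' processing notes, without versions. The authors deposited FPKM per gene, with 1 column per library, a log2 fold change and an unadjusted p-value. Recomputation matched log2 of the ratio of mean FPKM and an equal-variance test of FPKM in 13170 of 13170 genes, within 1e-06.

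FPKM were not counts, so log2(FPKM + 1) was tested with limma 3.58.1 in R 4.3.3 (variance trend, 2-sided, Benjamini-Hochberg). The fit took 12026 genes with a mean of at least 1 FPKM. It was checked on simulated data whose genes varied independently, with changes larger than those of any member. That check does not cover smaller changes or trends shared by the genes of a library. GENCODE M21 gave positions, and transcript GC content for 99.2% of tested genes. Absolute depth is unknown; the most common ratio among 1428 low genes gave relative depths of 0.956 to 1.33. Members, lists and tests were chosen with earlier results of these data known. Named genes were the members, up to 3 other genes per acetylcholine list by smallest p, the most abundant markers, and the 3 closest profiles to the 2 most variable members, of which some are not reported here; Ric3, Tmem35a and Ngfr were added for their roles. Alternatives were pseudocounts, filters, scalings, a GC and length trend, the replicate block, limma options, a choroid plexus covariate and each library left out; leaving out low libraries 1 and 3 together was added after seeing the data. Python 3.11.15 was used for the remaining steps.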

Additional observations from a re-analysis of the deposited data

How the results depend on the processing

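Over 21 alternative settings limma called 0 of all genes, 0 members and 0 of the other acetylcholine genes, with a smallest adjusted p over all genes of 0.0766 (without high library 2). The number of genes with an unadjusted p under 0.05, 1009 in the reported fit, was 1567 with array weights, 595 without low library 1 and 361 with low libraries 1 and 3 left out, where 1 low library is assumed to vary like the high ones. Ache and Chrnb2 kept their sign in all 21 settings and Chrm3 in the 20 that gave it a value, all but the filter at a mean of 5 FPKM, and the adjusted p of Ache ranged from 0.132 to 0.979. With each library left out in turn, log2 differences spanned −0.24 to 0.0044 for Chrm1, 0.082 (without high library 1) to 0.34 (without high library 2) for Chrm3, −0.27 (without low library 2) to −0.11 (without high library 3) for Chrm4, 0.010 (without high library 2) to 0.078 (without low library 1) for Chrnb2, −0.096 to 0.091 for Chrm2, −0.18 to 0.078 for Chrna4 and −0.18 to 0.028 for Chrna7. Chrm2 turned to 0.085 with the GC and length trend removed, with and without the replicate block, to 0.046 with array weights and to 0.0047 with low libraries 1 and 3 left out. With the choroid plexus covariate Chrm4 turned to 0.017, Chrna4 to 0.15 and Chrna7 to 0.18; with low libraries 1 and 3 left out they turned to 0.026, 0.19 and 0.22. Chrna4 was 0.0071 with array weights, and Chrm4 was −0.23 with the GC and length trend removed. The cause was not tested. The replicate number as a block gave 0 called genes and 743 at an unadjusted p under 0.05. Same-numbered libraries had correlations of −0.094, −0.21 and −0.16 between their deviations from the group means. These correlations cannot decide whether same-numbered libraries share a batch, which is not given here. The SE of Ache was 0.0730 with the block and 0.108 without it, and that of Chrm4 was 0.121 and 0.103. The log2 ratio of Chrna4 to Chrnb2, high minus low, was −0.096 and ranged from −0.26 without high library 1 to 0.030 without high library 3; that of Ache to the muscarinic sum was 0.45 and ranged from 0.30 to 0.63, and that of Gq-coupled to Gi-coupled receptors was 0.082 and ranged from 0.039 to 0.15. With 3 libraries per group, a median standard error of 0.0900 over all genes and no read counts, small differences of these genes were not detectable.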
